A study of Mus musculus with 6 samples.

Results

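The levels of 10 genes of the inflammasome and of lytic cell death were followed in AE9a leukemia cells taken from 2 regions of the bone marrow. The genes were Nlrp3, Pycard, Casp1, Casp4, Gsdmd, Ninj1, Ninj2, Il1b, Il18 and Il1rn. They were chosen by name, with their levels in both regions already known, out of 54532 genes in the count table, and 7 of the 10 passed the filter on low counts that left 13352 genes for testing. Because the choice was made with those levels in view, the differences between regions in these 10 genes are given as a description and carry no test.

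An inflammasome is a protein platform of innate immune cells, in which a sensor such as NLRP3 recruits the adaptor ASC, encoded by Pycard, and activates caspase-1. Active caspase-1 cleaves the precursors of the cytokines interleukin-1 beta and interleukin-18, and both caspase-1 and the inflammatory caspase encoded by mouse Casp4 cleave gasdermin D, whose released part forms pores in the plasma membrane. Rupture of the dying cell after pore formation depends on NINJ1, and interleukin-1 signalling outside the cell is held back by the receptor antagonist encoded by Il1rn. Transcript levels do not report cleavage, pore formation or cytokine release, which were not measured in these libraries.

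The libraries were bulk RNA-seq of leukemia cells from C57BL/6 mice. The leukemia had been started with a retrovirus carrying AML1-ETO9a (AE9a), a splice form of the AML1-ETO fusion, in c-Kit+ stem and progenitor cells marked by GFP, and was passed on by transplantation, so every library of both regions came from a transplanted, virally driven leukemia. Central bone marrow (CBM) cells were flushed from femurs and tibias, and endosteal bone marrow (EBM) cells were released afterwards from the emptied bones with collagenase I. There were 3 libraries for each region. The enzyme was applied to EBM only, so marrow region and digestion cannot be told apart. The labels mention cell sorting but no gate, and they do not say which libraries share a mouse, so p-values measure the spread between these libraries, which may be technical in part.

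Counts on genes totalled between 16436526 and 19462964 per library. Levels are given as CPM, counts scaled to library size after TMM normalization, whose factors lay between 0.948 and 1.04, or, where genes are compared with each other, as TPM, which also correct for gene length. The floor of 3 counts used here stood for between 0.149 and 0.193 CPM and covers counting error only, since PCR copies are not independent molecules. The leukemic progenitor list of 6 genes summed to between 542 and 594 CPM, mostly from Kit and Myb, while Cd34 ran from 1.16 to 16.4 CPM and the granule genes Mpo, Elane and Prtn3 had log2 fold changes of 1.67, 1.51 and 1.15 in EBM with overlapping regions. Lists of other cell types ranged from at most 1.39 CPM for T or NK cells and for osteoblasts or stroma to between 258 and 564 CPM for osteoclasts, nearly all from Acp5, and between 2146 and 5414 CPM for erythroid cells. The libraries also differed along a line that did not follow the regions. Cpa3, a mast cell protease, had 224, 3.73 and 44.2 CPM in the CBM libraries and 210, 180 and 5.20 CPM in the EBM libraries, in the order of their replicate numbers, which is kept for all values below, so CBM replicate 2 and EBM replicate 3 stood apart from CBM replicate 1 and EBM replicates 1 and 2.

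The promoters of the 4 members whose mean levels were furthest apart between the regions are shown so that their base composition and motifs can be read beside their levels. They are the bases that precede the gene's start in the count table, within RefSeq windows on GRCm38.p6 that run from 250 bases before to 50 bases after a transcript start. Capitals mark matches to the NF-kB consensus motif, the binding site of a factor family known for its role at inflammatory genes. Ninj1 is at chr13:49187279-49187484 on the plus strand, Il1b at chr2:129371140-129371389 on the minus strand, Nlrp3 at chr11:59541319-59541567 on the plus strand and Casp4 at chr9:5308599-5308827 on the plus strand, each printed 5′ to 3′ on the strand of its gene.
Ninj1: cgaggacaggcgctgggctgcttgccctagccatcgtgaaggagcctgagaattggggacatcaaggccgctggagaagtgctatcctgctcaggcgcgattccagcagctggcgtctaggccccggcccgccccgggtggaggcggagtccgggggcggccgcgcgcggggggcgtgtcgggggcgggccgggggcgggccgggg
Il1b: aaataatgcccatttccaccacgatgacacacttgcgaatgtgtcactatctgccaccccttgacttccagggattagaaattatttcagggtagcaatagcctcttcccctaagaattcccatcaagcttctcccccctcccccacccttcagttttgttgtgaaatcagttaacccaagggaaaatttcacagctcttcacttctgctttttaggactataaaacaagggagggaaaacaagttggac
Nlrp3: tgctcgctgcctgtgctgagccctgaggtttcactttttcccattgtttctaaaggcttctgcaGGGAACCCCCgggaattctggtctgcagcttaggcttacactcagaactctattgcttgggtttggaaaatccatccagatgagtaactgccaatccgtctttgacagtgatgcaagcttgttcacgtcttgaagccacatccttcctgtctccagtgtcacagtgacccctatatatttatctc
Casp4: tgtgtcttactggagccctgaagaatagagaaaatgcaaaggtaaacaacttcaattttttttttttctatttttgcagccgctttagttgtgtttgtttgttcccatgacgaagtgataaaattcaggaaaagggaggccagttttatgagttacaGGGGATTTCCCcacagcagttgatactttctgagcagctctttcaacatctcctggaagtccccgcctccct

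The Casp4 promoter held overlapping matches to the NF-kB consensus motif from position -93 to -83 relative to the RefSeq start, at chr9:5308756-5308766. The Nlrp3 promoter held 1 match on the opposite strand, from position -186 to -177 relative to its RefSeq start, at chr11:59541383-59541392. At least 1 such match was found in 4.51% of all 32851 windows of the same length. The search covered both strands and also looked for the AP-1 motif TGANTCA (in 7.81% of all windows), the PU.1 core GAGGAA (28.3%) and the C/EBP motif TTGCNNAA (10.8%). The windows of Ninj1, Il1b, Ninj2 and Il18 held no match to the letters of any of the 4 motifs. A PU.1 core was found in Casp1, Pycard and a second Nlrp3 window, a C/EBP motif in Pycard and an AP-1 motif in Il1rn. Over the 300 bases of its window, Ninj1 had a GC content of 76.3% with 37 CpG dinucleotides, whereas the GC content was 45.7% in Il1b, 47.3% in Nlrp3 and 42% in Casp4, and the median over all windows was 52.7%. RefSeq gave windows for 9 of the 10 genes, all but Gsdmd, and a motif match is a match of letters and no evidence of binding.

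Ninj1 and Il1b were the 2 members whose levels in EBM lay above those in CBM without overlap, out of 7 with enough counts, and 7.47% of all genes tested were separated in this direction. No member was separated in the other direction, against 7.65% of all genes. The mean level of Ninj1 was 2.46-fold higher in EBM than in CBM and that of Il1b was 9.52-fold higher. The means of Nlrp3 and Casp4 were also higher in EBM, but their ranges overlapped. EBM replicate 3 was below CBM replicate 1 alone for Nlrp3 and below every CBM library for Casp4. The EBM mean was 1.04 times the CBM mean for Casp1, 1.05 times for Gsdmd and 0.913 times for Pycard, and Ninj2, Il18 and Il1rn had at most 5 counts in any library. In bulk RNA, fewer cells of a type and less RNA per cell cannot be told apart, which applies to each of these levels.

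**Figure D1:**
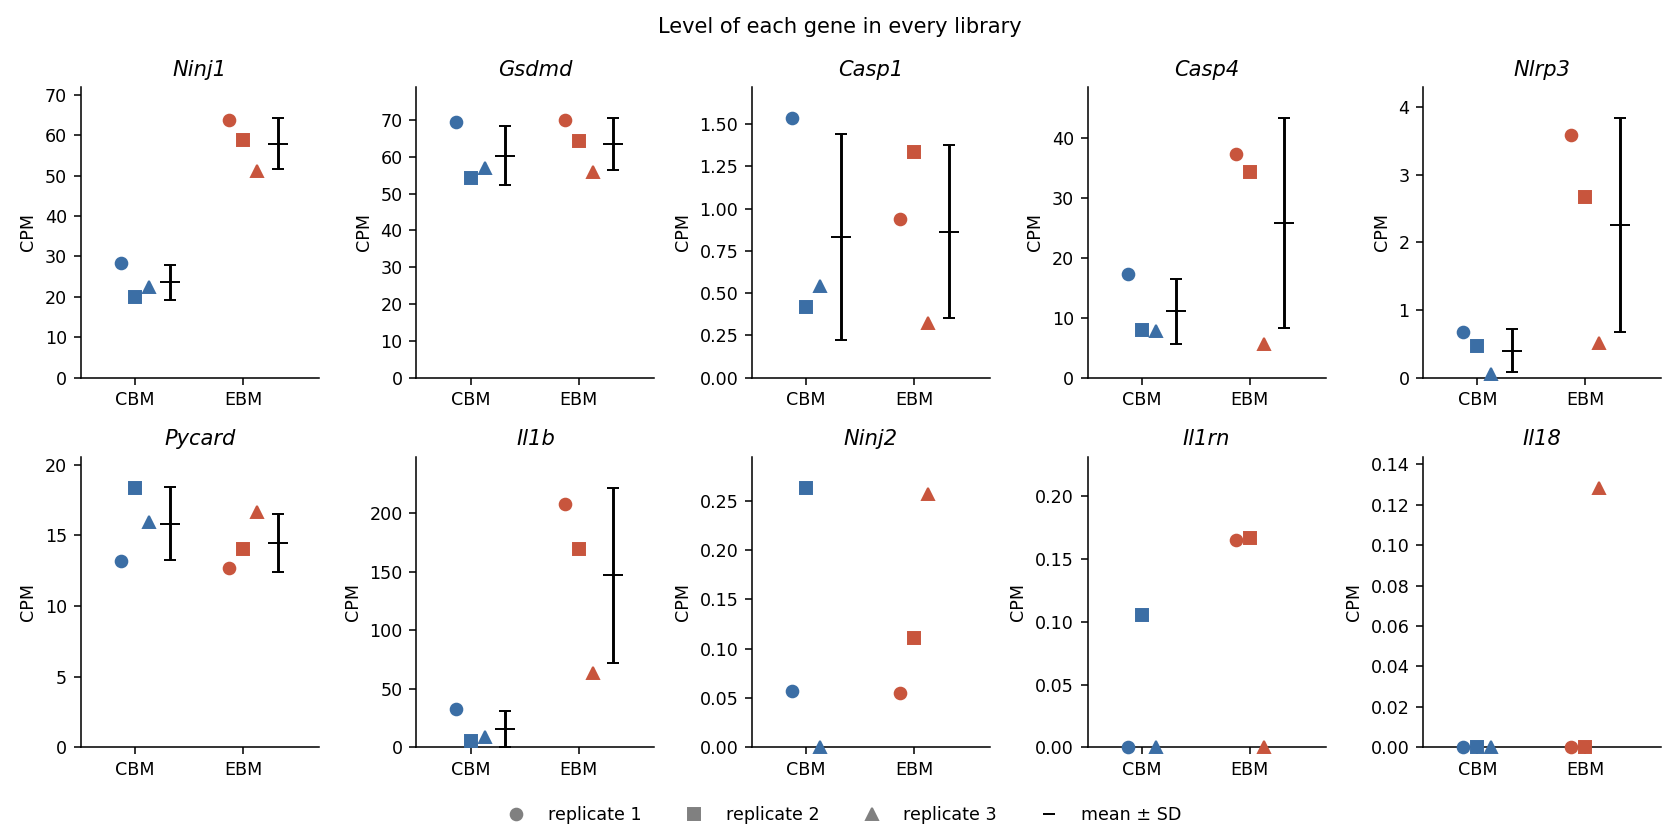
Level of each gene in every library in CPM (linear axes that start at 0 and differ between panels), with CBM in blue, EBM in red and the replicate number given by the shape of the point. Black bars are the mean ± SD of 3 libraries for the 7 genes that passed the filter on low counts. The EBM points lie above every CBM point for Ninj1 and Il1b, and EBM replicate 3 (triangle) lies below every CBM point for Casp4 and Casp1 and among them for Nlrp3.

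Across all genes, edgeR's quasi-likelihood test called 0% of the 13352 genes at an adjusted p under 0.05, so no member was called. Before adjustment, 1056 genes had a p below 0.05 in this test. Those higher in EBM were 4.01% of all genes and those lower were 3.9%. DESeq2 called 175 genes and limma-voom 0 at the same adjusted threshold. The DESeq2 calls that were higher in EBM were 1.04% of the genes it tested. The members were picked with this contrast known. Which of them are among these genes is therefore not given, and the members are not read against these shares. Their median log2 fold change was 1.23, with 6 of 7 above 0, and the 6 include Casp1 and Gsdmd, whose sign turned when single libraries were left out. Over all genes tested the median was 0.0017, with 6726 of 13352 above 0. For the same reason the members are not read against these values either.

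Nlrp3, the sensor, lies at chr11:59541568-59566956 on the plus strand and had the lowest mean TPM of the 7 members that passed the filter. It had 12, 9 and 1 counts in CBM and 65, 48 and 8 counts in EBM. These counts correspond to 0.682, 0.473 and 0.0496 CPM in CBM and 3.58, 2.67 and 0.513 CPM in EBM. EBM replicates 1 and 2 lay above all of CBM, while EBM replicate 3 lay between CBM replicates 1 and 2. The CBM libraries averaged 0.402 ± 0.322 CPM and the EBM libraries 2.26 ± 1.58 CPM (mean ± SD, n = 3), and the log2 fold change was 2.50 ± 0.90 (SE). It was 3.10 without CBM replicate 1 and 1.96 without CBM replicate 3, the library with a single count, so its size was set in part by single libraries.

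Pycard, the adaptor that joins sensors to caspase-1, lies at chr7:127989708-127993867 on the minus strand. Its level was 13.2, 18.3 and 16.0 CPM in CBM and 12.7, 14.0 and 16.7 CPM in EBM. The regions overlapped over most of their range, and the CBM libraries averaged 15.8 ± 2.58 CPM and the EBM libraries 14.5 ± 2.04 CPM (mean ± SD, n = 3). The log2 fold change was -0.13 ± 0.18 (SE), and it lay between -0.25 and -0.012 when each library was left out in turn. Within a region Pycard ran against most other members, since it was lowest in CBM replicate 1 and in EBM replicate 1.

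Casp1 and Casp4 are neighbours on the plus strand of chromosome 9, with Casp1 at chr9:5298517-5307265 and Casp4 at chr9:5308828-5336783. The 1562 bases between them hold no other gene of the count table. Both genes code for inflammatory caspases of related sequence, and how reads common to both were assigned is not given in the sources used here. Casp1, whose product matures interleukin-1 beta, had 27, 8 and 11 counts in CBM and 17, 24 and 5 counts in EBM. The libraries of the regions were interleaved, between 0.421 and 1.53 CPM in CBM and between 0.321 and 1.33 CPM in EBM. The log2 fold change was 0.08 ± 0.66 (SE), and its sign turned on single libraries, from 0.84 without CBM replicate 1 to -0.38 without EBM replicate 2, so no direction can be read for Casp1.

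Casp4, the gene of the caspase that senses bacterial lipopolysaccharide inside the cell, had 305, 152 and 157 counts in CBM and 676, 617 and 88 counts in EBM. Its level was 17.3, 7.99 and 7.78 CPM in CBM and 37.3, 34.3 and 5.65 CPM in EBM. EBM replicates 1 and 2 were above every CBM library and EBM replicate 3 was below every one of them. The CBM libraries averaged 11.0 ± 5.46 CPM and the EBM libraries 25.7 ± 17.5 CPM (mean ± SD, n = 3), and the log2 fold change was 1.23 ± 0.68 (SE). Within each library the TPM level of Casp4 exceeded that of Casp1, by 4.56, 7.67 and 5.76 times in CBM and by 16.0, 10.4 and 7.10 times in EBM. This ratio overlapped between the regions, because it was higher in CBM replicate 2 than in EBM replicate 3. Its size depends on the gene lengths used, since by counts it was 11.3, 19.0 and 14.3 in CBM and 39.8, 25.7 and 17.6 in EBM.

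Gsdmd, which encodes the pore-forming gasdermin D, lies at chr15:75862327-75867408 on the plus strand. It had 69.6, 54.4 and 57.1 CPM in CBM and 69.9, 64.4 and 55.9 CPM in EBM. The regions covered almost the same range, and the CBM libraries averaged 60.3 ± 8.10 CPM and the EBM libraries 63.4 ± 7.06 CPM (mean ± SD, n = 3). The log2 fold change was 0.07 ± 0.14 (SE), and it lay between -0.0044 and 0.19 when each library was left out in turn.

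Ninj1, which encodes the membrane protein that carries out rupture of dying cells, lies at chr13:49187485-49196244 on the plus strand. It had 501, 378 and 451 counts in CBM and 1155, 1058 and 799 counts in EBM. Scaled to library size this was 28.5, 19.9 and 22.3 CPM in CBM and 63.7, 58.8 and 51.3 CPM in EBM. All 3 EBM libraries were above all 3 CBM libraries, and the lowest EBM library was 1.80-fold above the highest CBM library. The CBM libraries averaged 23.6 ± 4.43 CPM and the EBM libraries 57.9 ± 6.25 CPM (mean ± SD, n = 3). The log2 fold change was 1.30 ± 0.16 (SE), and it lay between 1.19 and 1.46 when each library was left out in turn. EBM replicate 3, the library that was below CBM for Casp4, was above CBM for Ninj1. The paralog Ninj2, an adhesion protein of the same family at chr6:120093350-120200339 on the plus strand, had 1, 5 and 0 counts in CBM and 1, 2 and 4 counts in EBM, which gives no fold at this depth.

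Il1b, the gene of the cytokine interleukin-1 beta, lies at chr2:129364570-129371139 on the minus strand and had the largest difference of the members. It had 580, 95 and 169 counts in CBM and 3770, 3048 and 993 counts in EBM. Its level was 33.0, 4.99 and 8.37 CPM in CBM and 208, 169 and 63.7 CPM in EBM. All EBM libraries were above all CBM libraries, and the lowest EBM library was 1.93-fold above the highest CBM library, although levels differed 6.60-fold within CBM and 3.26-fold within EBM. The CBM libraries averaged 15.4 ± 15.3 CPM and the EBM libraries 147 ± 74.6 CPM (mean ± SD, n = 3). The log2 fold change was 3.26 ± 0.79 (SE). It was 4.46 without CBM replicate 1, the CBM library with the highest level, and between 2.84 and 3.61 when any other library was left out. The antisense gene Il1bos overlaps 1243 bases of Il1b on the opposite strand and had 117, 33 and 42 counts in CBM and 248, 237 and 66 counts in EBM. The sources used here do not say whether counting used the strand, so reads of Il1b and Il1bos in these bases may have been mixed.

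Il18, at chr9:50554827-50581840 on the plus strand, encodes the other cytokine that caspase-1 matures and had 0 counts in 5 libraries and 2 counts in EBM replicate 3. Il1rn, at chr2:24336853-24351494 on the plus strand, had 0, 2 and 0 counts in CBM and 3, 3 and 0 counts in EBM. Both genes were therefore at or under the floor of 3 counts in every library, and a difference between regions was not detectable at this depth. Per length, Il1b was between 8.16 and 324 TPM in the same libraries in which Il1rn was at most 0.0921 TPM.

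**Figure D2:**
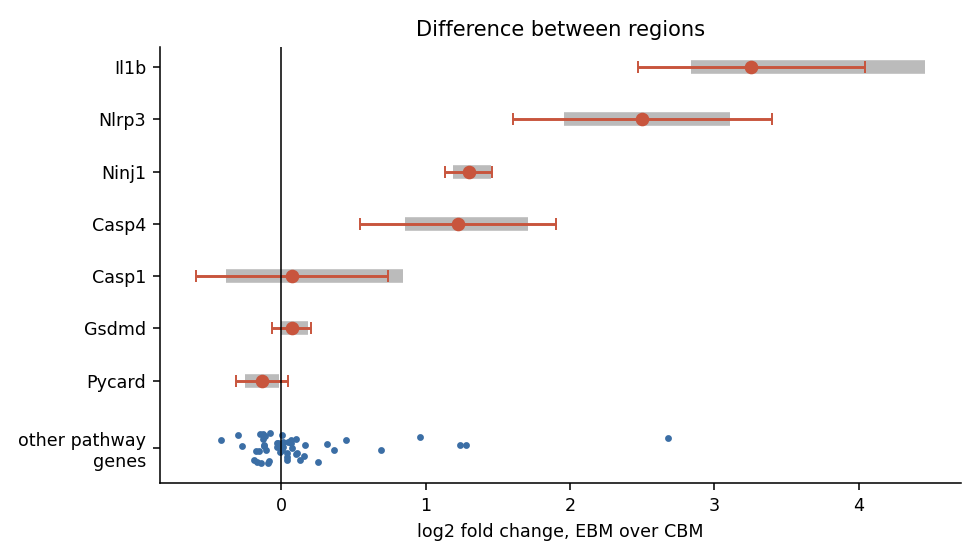
Log2 fold change of EBM over CBM (horizontal axis) for the 7 genes that passed the filter, as red points with bars of 1 standard error, and the range of the fold change when each library was left out in turn, as grey bars. Blue points are the 51 other genes of the pathway that passed the filter, spread vertically at random. Il1b, Nlrp3, Ninj1 and Casp4 lie between 1.23 and 3.26, Casp1, Gsdmd and Pycard lie near 0, and the median of the blue points is 0.0044.

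The genes were next put in order by TPM, which compares levels between genes through the gene lengths of the count table. The order depends on these lengths, which were 3800 bases for Pycard, 3710 for Casp4 and 1497 for Casp1. Whether they match the transcripts present in these cells was not tested. In CBM the order was Gsdmd (80.6 ± 11.1 TPM), Ninj1 (47.7 ± 9.15 TPM), Il1b (25.7 ± 25.4 TPM), Pycard (13.2 ± 2.04 TPM), Casp4 (9.44 ± 4.66 TPM), Casp1 (1.77 ± 1.29 TPM) and Nlrp3 (0.312 ± 0.251 TPM), with SD over 3 libraries. Gsdmd was separate from Ninj1, Casp4 from Casp1 and Casp1 from Nlrp3, whereas Ninj1 overlapped with Il1b, Il1b with Pycard and Pycard with Casp4. In EBM the order was Il1b (230 ± 120 TPM), Ninj1 (109 ± 14.8 TPM), Gsdmd (78.8 ± 11.0 TPM), Casp4 (20.8 ± 14.3 TPM), Pycard (11.2 ± 1.25 TPM), Casp1 (1.73 ± 1.07 TPM) and Nlrp3 (1.66 ± 1.17 TPM). Il1b overlapped with Ninj1, Casp4 with Pycard and Casp1 with Nlrp3, and the other neighbours were separate. Gsdmd, the most abundant transcript of the 7 in every CBM library, was behind Il1b and Ninj1 in every EBM library.

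**Figure D3:**
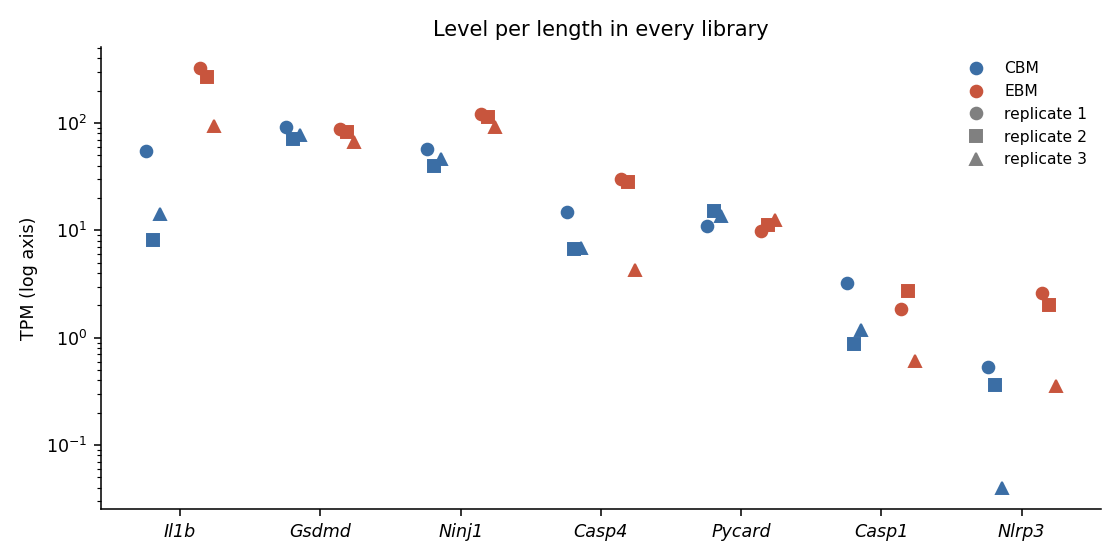
Level per length of the 7 genes in every library in TPM (log axis), with CBM in blue, EBM in red and the replicate number given by the shape of the point. Gsdmd and Pycard have nearly the same spread in both regions, Ninj1 shifts as a tight group of points, and Casp4, Casp1, Nlrp3 and Il1b are spread widely within a region.

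Ratios of TPM within a library do not depend on the scaling between libraries. The ratio of Ninj1 to Gsdmd was 0.620, 0.553 and 0.593 in CBM libraries against 1.379, 1.383 and 1.389 in EBM libraries. It was thus below 1 in every CBM library and above 1 in every EBM library, and it varied little within a region. By counts, without the gene lengths, it was 0.409, 0.366 and 0.391 in CBM and 0.911, 0.914 and 0.917 in EBM. The regions were separate either way, but whether the ratio passed 1 depended on the gene lengths. The EBM ratios rest on 799 to 1155 counts of Ninj1 and 871 to 1268 counts of Gsdmd, so differences in their later decimals are within counting error. The ratio of Il1b to Gsdmd was 0.591, 0.115 and 0.183 in CBM and 3.71, 3.28 and 1.42 in EBM, also below and above 1 without overlap. The ratio of Gsdmd to Pycard overlapped, from 4.74 to 8.43 in CBM and from 5.36 to 8.81 in EBM. The ratio of Ninj1 to Casp4 was between 3.88 and 6.79 in CBM and was 4.04, 4.05 and 21.5 in EBM, so EBM replicate 3 differed from the other EBM libraries in the balance of these genes and not only in their common level.

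**Figure D4:**
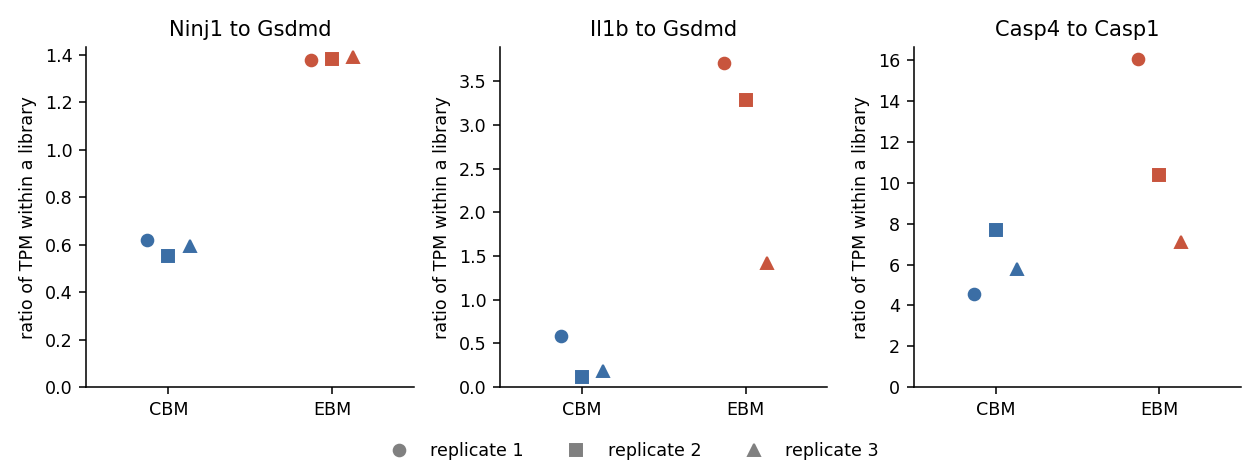
Ratios of TPM between pairs of genes within each library (linear axes that start at 0), with CBM in blue, EBM in red and the replicate number given by the shape of the point. The 3 EBM points for Ninj1 to Gsdmd lie at 1.379 to 1.389 and the 3 CBM points at 0.553 to 0.620, while the points for Casp4 to Casp1 overlap between the regions.

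The members also differed in how far libraries of the same region lay apart. The SD within a region, on the log2 CPM scale, was 0.176 for Gsdmd, 0.217 for Ninj1 and 0.219 for Pycard, below the median of 0.222 over all genes tested. It was 0.885 for Casp1, 1.17 for Casp4, 1.18 for Il1b and 1.30 for Nlrp3, larger than in 94.8% to 97.8% of all genes tested. The last 4 genes include low-count genes, for which counting error adds to the spread, but Casp4 and Il1b had at least 88 counts in every library. CBM replicate 1 was the highest CBM library for 6 of the 7 genes and EBM replicate 3 the lowest EBM library for 6 of the 7, the exception being Pycard in both cases. Without EBM replicate 3, Casp4 and Nlrp3 joined Ninj1 and Il1b, so that 4 of the 7 genes lay higher in EBM without overlap, as did 12.8% of all genes tested with the same 5 libraries. Without CBM replicate 1, Nlrp3 joined them, and 11.8% of all genes were then separated in this direction.

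Marker genes of other cell types were read beside these levels. The mature neutrophil list (10 genes) summed to 8.18, 237 and 3.42 CPM in CBM and 50.2, 166 and 35.6 CPM in EBM. The sum was highest in CBM replicate 2, where Il1b was lowest. In CBM replicates 1 and 3 the sum was below every EBM library, as Il1b was. Ly6g, which defines mature neutrophils, had 0 counts in 3 libraries and at most 18 in the others, and Cxcr2 had at most 20. Other genes of the list had more, up to 1084 counts for S100a8, 1135 for S100a9, 910 for Ngp and 725 for Ltf, each in CBM replicate 2. The monocyte or macrophage list (12 genes) summed to 26.3, 23.7 and 18.2 CPM in CBM and 27.5, 37.3 and 14.8 CPM in EBM, most of it from Ccr2 and Cd68, and was highest in EBM replicate 2 and lowest in EBM replicate 3. Csf1r, a defining receptor of monocytes and macrophages, had at most 1.11 CPM, and the complement genes C1qa, C1qb and C1qc had at most 0.556 CPM each. The mast cell or basophil list (5 genes) summed to between 665 and 1382 CPM in CBM and between 791 and 1245 CPM in EBM, most of it from Ms4a2. Within it Fcer1a had 106, 4.26 and 17.6 CPM in CBM and 97.9, 76.4 and 3.47 CPM in EBM, low in EBM replicate 3 and CBM replicate 2 as Cpa3 was. Ms4a2 was also lower in these libraries, at 781 and 651 CPM, against between 931 and 1050 CPM in the others. Prss34 and Mcpt8 were instead highest in CBM replicate 2, at 4.94 and 1.21 CPM, and in EBM replicate 3 they had 1.16 and 0.513 CPM. Casp4 and Casp1 were lowest in EBM replicate 3 and, within CBM, highest in replicate 1. The same order held within each region for Ninj1, Gsdmd, Nlrp3 and Il1b. In CBM replicates 2 and 3 Casp4 was at 7.99 and 7.78 CPM, where Cpa3 was at 3.73 and 44.2 CPM. Of the genes tested in these lists, 4 of 8 neutrophil, 3 of 4 monocyte or macrophage and 2 of 4 mast cell or basophil genes had higher levels in EBM. The part of these cell types in the levels of Il1b, Casp4, Casp1 and Nlrp3 was not tested.

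**Figure D5:**
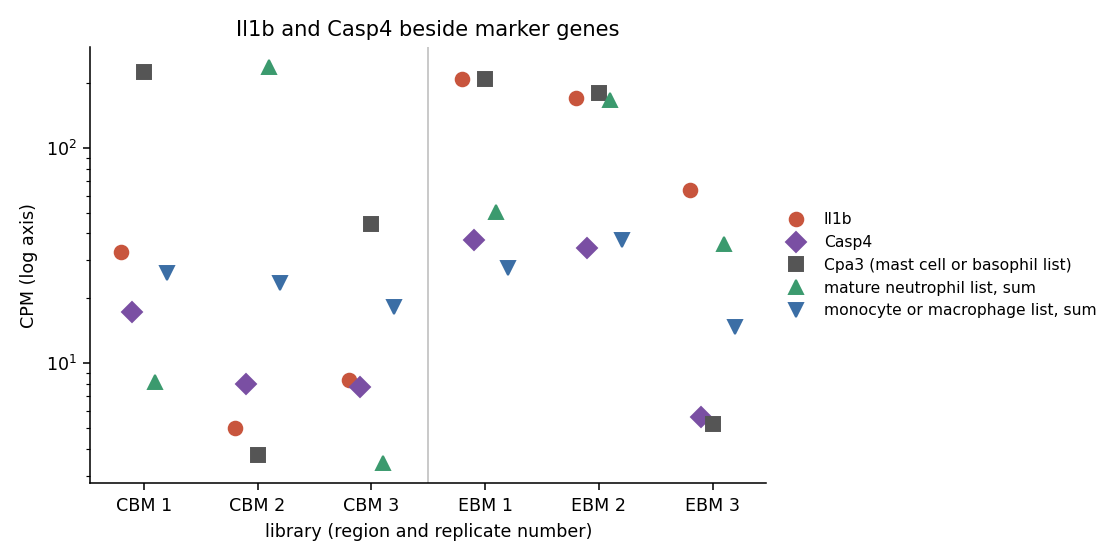
CPM (log axis) in each library of Il1b, Casp4, Cpa3 and the summed CPM of the mature neutrophil and monocyte or macrophage lists, with points of one library set side by side. Casp4 and Cpa3 are both low in EBM replicate 3, at 5.65 and 5.20 CPM, where Il1b is 63.7 CPM. In CBM replicates 2 and 3 Casp4 is 7.99 and 7.78 CPM, and Cpa3 is 3.73 and 44.2 CPM. The neutrophil sum is highest in CBM replicate 2, at 237 CPM, where Il1b is 4.99 CPM. In CBM replicates 1 and 3 the sum is below every EBM library, as Il1b is.

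The other genes of the pathway were taken from a list of 73 genes in 6 groups, written from general knowledge of the pathway, although with earlier results of these data known. Of the 73, 51 passed the filter on low counts, and 10 had no count in any library. edgeR called 0 of the 51 genes. At an unadjusted p under 0.05 it counted 4 higher and 2 lower in EBM, beside 4.01% and 3.9% of all genes tested. DESeq2 called 3, all higher in EBM, a direction in which it called 1.04% of all genes it tested, and limma-voom called 0. The 51 genes were nearly evenly divided, with 27 higher and 24 lower in EBM and a median log2 fold change of 0.0044, beside 0.0017 over all genes tested.

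Among the sensors and their partners, 9 of 15 genes were tested, 2 with a higher and 7 with a lower level in EBM, and with log2 fold changes between -0.15 and 0.05. Nek7, a kinase that binds NLRP3 during its activation, averaged 94.9 ± 5.03 CPM over CBM and 85.7 ± 16.5 CPM over EBM libraries, and its log2 fold change was -0.15 with an edgeR adjusted p of 0.913. The sensor genes Naip2 and Naip6 had log2 fold changes of -0.15 and -0.10. They belong to a family of close copies, so reads may have been divided between them. All 9 sensors of this list overlapped between the regions.

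Of the other caspases, 6 of 7 were tested and none was separated between the regions. Casp2 had a log2 fold change of -0.01. Of the other gasdermin genes, 2 of 9 were tested, Gsdme at 23.1 ± 7.61 CPM in CBM and 21.7 ± 6.51 CPM in EBM, and Gsdma at 8.44 ± 1.60 CPM in CBM and 7.94 ± 0.544 CPM in EBM. Per length, Gsdme averaged 5.41 TPM and Gsdma 9.20 TPM over the 6 libraries, both below the level of Gsdmd in every library, and 4 of the 7 untested gasdermin genes had no count.

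Of the other interleukin-1 family ligands, Il1a alone passed the filter, and 5 of 7 had no count. Il1a, an alarmin whose gene lies beside Il1b, had 1.42, 0.473 and 0.248 CPM in CBM and 5.24, 6.78 and 1.60 CPM in EBM, with the lowest EBM library above the highest CBM library. Its log2 fold change was 2.68 ± 0.75 (SE), and the adjusted p was 0.415 by edgeR and 0.014 by DESeq2. Il1a was thus called by DESeq2 but not by edgeR.

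Of the receptors, decoys and receptor-proximal signalling genes, 13 of 14 were tested, with 6 higher and 7 lower in EBM. Il1rl1, the receptor of interleukin-33, was at 1087 ± 234 CPM in CBM and 998 ± 206 CPM in EBM, with a log2 fold change of -0.12. The signalling genes Irak1 and Traf6 had log2 fold changes of 0.04 and 0.16. Each of the 3 genes overlapped between the regions. In this group, Myd88 was higher in EBM without overlap, and Il1r1, the receptor of interleukin-1, and Irak4 were lower without overlap, beside 7.47% and 7.65% of all genes in these directions. The log2 fold changes of these 3 genes, named after their values were seen, were 0.32, -0.41 and -0.18, with adjusted p-values of 0.520, 0.545 and 0.696 by edgeR.

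Of the regulators of inflammasome activation, pyroptosis, necroptosis and membrane repair, 20 of 21 were tested, with 14 higher and 6 lower in EBM and a median log2 fold change of 0.06. Txnip, which binds NLRP3 under oxidative stress, averaged 509 ± 124 CPM over CBM and 696 ± 370 CPM over EBM libraries with overlap. The log2 fold changes of Chmp4b, a subunit of the machinery that mends pierced membranes, and P2rx7, the ATP receptor upstream of NLRP3, were 0.10 and 0.01. Gbp5 and Gbp3, which encode interferon-induced GTPases and are named here after their values were seen, were the regulators called by DESeq2. Gbp5 had 25.5, 28.2 and 24.6 CPM in CBM and 48.6, 66.2 and 70.3 CPM in EBM, without overlap. Its log2 fold change was 1.24 ± 0.16 (SE), and the adjusted p was 0.115 by edgeR and 7.9e-08 by DESeq2. Gbp3 had 19.1, 12.1 and 10.5 CPM in CBM and 36.4, 38.9 and 25.5 CPM in EBM, also without overlap, with a log2 fold change of 1.28, and its adjusted p was 0.266 by edgeR and 0.0012 by DESeq2. The related Gbp7 was lower in EBM without overlap, with a log2 fold change of -0.30 and an edgeR adjusted p of 0.516, and Gbp2 overlapped. Of the 20 regulators, 3 were higher (Gbp5, Gbp3 and Chmp3) and 2 lower (Gbp7 and Brcc3) without overlap, beside 7.47% and 7.65% of all genes in these directions. These regulators too were named after their values were seen.

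The genes whose levels over the 6 libraries were most like those of Ninj1 and of Il1b were found by Pearson's r of log2 CPM among 13351 other genes, as a description of likeness in few libraries. For Ninj1 they were Arf4 (r = 0.994), Slc35a2 (r = 0.993) and Dusp16 (r = 0.991). Arf4 had 107, 92.3 and 99.2 CPM in CBM and 142, 140 and 139 CPM in EBM, and its log2 fold change was 0.50, smaller than that of Ninj1. For Il1b they were Csrnp1 (r = 0.998), Gm18811 (r = 0.995) and Nr4a3 (r = 0.995). Csrnp1 had 78.1, 26.5 and 35.7 CPM in CBM and 209, 173 and 95.6 CPM in EBM, so that CBM replicate 1 and EBM replicate 3 took the same places as in Il1b. Nr4a3, an orphan nuclear receptor gene, had 0.796, 0 and 0.0496 CPM in CBM and 8.71, 7.01 and 1.28 CPM in EBM. Its CBM replicates 2 and 3 were under the floor of 3 counts, so its r rests in part on values near 0. All 6 points share the libraries' depth and the split along Cpa3, and the lists for Ninj1 and Il1b had no gene in common.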

How the data were processed

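Bulk RNA-seq of AE9a leukemia cells from CBM and EBM, with 3 libraries each, was read from a single table of raw counts per gene that the authors deposited, made from rRNA-depleted, directional, paired-end libraries. The submitters' processing notes name HISAT2 2.0.5 and mm10. The counting tool, annotation and use of strand are not given in the sources used here. The deposited table also holds a length per gene, used as given for TPM. Of its identifiers, 98.3% of those shared with GENCODE M21 had the same coordinates, which places them on GRCm38.

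Libraries were grouped by their labels. Genes were kept by filterByExpr, scaled by TMM and tested by the quasi-likelihood F-test of edgeR 4.0.16 (R 4.3.3) without a block, with Benjamini-Hochberg adjustment at 0.05 over 13352 genes. DESeq2 1.42.0, limma-voom (limma 3.58.1), other factors and filters, a replicate block and leaving out each library were the alternatives. Scripts were tested on simulated data. Library totals lay between 16436526 and 19462964, and replicate libraries differed by more than sampling noise. A fold of means is a ratio of mean CPM, and a log2 fold change is edgeR's. Its SE is the absolute log2 fold change divided by the square root of the F statistic, and is approximate.

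The members and lists were chosen with earlier results of these data known. Named genes were the 10 members, the 3 most abundant tested genes of each of 6 pathway groups, any pathway gene called by edgeR and the 3 genes most like Ninj1 and Il1b, and some items that this rule names are not reported here. Sequences are from RefSeq on GRCm38.p6.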

Additional observations from a re-analysis of the deposited data

How the results depend on the processing

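In the main fit edgeR called 0 genes, and the count of calls depended on the method. There were 3 libraries in each region and a spread that did not follow the regions, and the part of either in the count of calls was not tested. DESeq2 called 175 genes and edgeR without a filter on low counts 40, and of the other pathway genes DESeq2 called 3 and edgeR without the filter 1, which was Gbp5. Limma-voom, other size factors, the stricter filter and leaving out each library gave 0 calls, both over all genes and in the pathway list. The cause of these differences was not tested. The number of members separated between the regions was 2 and lay between 2 and 4 when each library was left out, with 4 without EBM replicate 3 (12.8% of all genes separated in this direction) and 3 without CBM replicate 1 (11.8%), and stayed at 2 under the other scalings. Of 89 recomputed member fold changes, 88 moved by less than the spread within a region, and 1, Il1b without CBM replicate 1, moved to 4.46. The stricter filter removed Casp1 and Nlrp3, which therefore have no value under it. A fit with the replicate block also called 0 genes and 0 pathway genes, and no call changed with it. The block gave log2 fold changes of 1.31 for Ninj1, 3.48 for Il1b and 0.96 for Casp4. Deviations from the region means correlated at 0.676, -0.204 and 0.203 for numbers 1 to 3, and CBM replicate 2 correlated best with EBM replicate 3 (0.510), so the numbers were not taken as pairs. Depth left Ninj2, Il18 and Il1rn without a comparison and, of the genes compared, limits Casp1 and Nlrp3 most.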
